A study of Mus musculus with 6 samples.

Results

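The genes described here are 10 genes of myeloid cells, among the 24553 genes and unmatched rows of the table: the adaptor genes Tyrobp and Fcer1g, the Fc receptor genes Fcgr1, Fcgr3 and Fcgr2b, the Toll-like receptor genes Tlr2 and Tlr7, their helper genes Cd14 and Ly86, and the tetraspanin gene Cd53. They were chosen by name as a list of adaptor and receptor genes, with earlier results of these data known. The RefSeq rows were matched to mouse gene symbols, and the rows of each symbol were summed. RNA of the cortex was sequenced from male C57BL/6J mice at 15 weeks of age, 14 days after stroke, with 3 libraries from mice given short-chain fatty acids (SCFA) and 3 from mice given a salt-matched control, both offered in drinking water over 4 weeks, begun when the mice were 6 to 8 weeks old. Per the labels' protocols, all animals of both groups also drank Metronidazol, Neomycin and the further antibiotics Ampicillin and Vancomycin, with sucrose at 5%, so the control group is an antibiotic-treated group after stroke. The design text gives 3 mice for each group, and each library was taken as 1 mouse. The sources used here do not give the hemisphere or the distance from the lesion. The question of the comparison is which transcripts differ in the cortex after stroke when SCFA are given. Where 3 values of a group are printed, they stand in the order of replicates 1 to 3.

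Microglia, the resident macrophages of the brain, and macrophages that enter it after injury carry surface receptors that have no signalling tail of their own. These receptors pair with small membrane adaptors, chiefly the products of Tyrobp and Fcer1g, whose tails hold an immunoreceptor tyrosine-based activation motif (ITAM) that recruits the kinase Syk. Receptors for the constant part of antibodies use the Fcer1g chain, an inhibitory Fc receptor acts against them, and Toll-like receptors sense microbial and damage-derived ligands through the adaptor Myd88.

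Total counts were 9275252 to 13862756 per library, and a single row that matched no gene symbol took 35.0% to 55.3% of them. A library stood apart from the rest in each group. In control 2, 13600 rows held counts, where the other libraries had 15988 to 16941, and the highest share of the unmatched row. SCFA 2 had 1895 counts of Penk, a gene of striatal neurons, against 242 to 360 in the other libraries, and the summed level of 7 striatal neuron markers was 387 CPM there (counts scaled to a common library size) against 66.7 to 127 CPM elsewhere. The markers of the labelled tissue were present, with neuron markers summing to 1350 to 1550 CPM in controls and 1490 to 1720 CPM with SCFA. CPM values here are scaled with the trimmed mean of M values (TMM).

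The promoter sequences that bear on these genes are shown for the members with a site core of PU.1, the lineage factor of myeloid cells encoded by Spi1. Of the 10 genes, 7 had a promoter in the RefSeq table used (GRCm38.p6), and Tyrobp, Tlr7 and Cd14 had none. The letters GAGGAA were searched on both strands in the 250 bases before each start. They occurred in 3 of the 7 genes and in 25.9% of all 27025 genes with a promoter, and the longer form GAGGAAG, which contains the first, occurred in 2 of the 7 and in 12% of all. The stretches are written on the strand of the gene, which is the minus strand for the 3 genes, with the match in capitals. In Fcgr1 and Fcgr3 the capitals are the reverse complement of the longer form and in Cd53 they are the shorter form.
Fcgr1, chr3:96293989-96294055: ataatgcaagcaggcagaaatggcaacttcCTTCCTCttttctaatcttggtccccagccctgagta
Fcgr3, chr1:171059395-171059440: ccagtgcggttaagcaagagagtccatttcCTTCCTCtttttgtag
Cd53, chr3:106790153-106790218: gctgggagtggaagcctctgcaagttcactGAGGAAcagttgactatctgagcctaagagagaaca
The match ended 50 bases before the start in Fcgr1 and 34 bases before the start in Cd53. Fcgr3 has 2 starts in the table, and the match ended 10 bases before the start used for the printed stretch and 1 base before the other. Both starts of Fcgr3 lie inside the longer span that the annotation gives for that gene. Such a match describes the letters of these windows only, since no binding was measured.

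The levels were higher with SCFA in the 6 members that reached the low-count filter in every library. None of the tested members passed the edgeR test over all genes. Of the 10 genes, 7 had enough counts for the low-count filter. All 7 had a log2 fold change above 0, as had 50.9% of all genes, and ranged from 0.59 to 1.61, with a median of 0.96 where the median of all 11969 genes tested was 0.01. The highest was that of Tlr2, which reached the low-count filter in 2 controls and 3 SCFA libraries, so its direction is not read. The range and the median of the 7 include Tlr2. The other 6 ranged from 0.59 to 1.29. The next was Fcgr1 at 1.29. With edgeR's quasi-likelihood test and Benjamini-Hochberg adjustment over all genes, 0 of the 7 passed in either direction, where 0.00835% of all genes passed as higher and 0.0752% as lower. Of the 9 genes that passed as lower, 6 were exocrine pancreas markers, which do not belong to cortex. At an unadjusted p under 0.05, 6 of the 7 were higher and 0 lower, where 2.97% and 2.79% of all genes were. These 6 are the tested members other than Tlr2. In 6 of the 7, Tlr2 among them, each SCFA library lay above each control and in 0 below, where 6.42% and 5.74% of all genes showed this. The list was chosen with earlier results of these data known, so these shares describe it and are no test of it. DESeq2 called 1 member, Tyrobp, and limma-voom called 0. In bulk tissue, more cells of a type and more RNA per cell cannot be told apart.

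**Figure D1:**
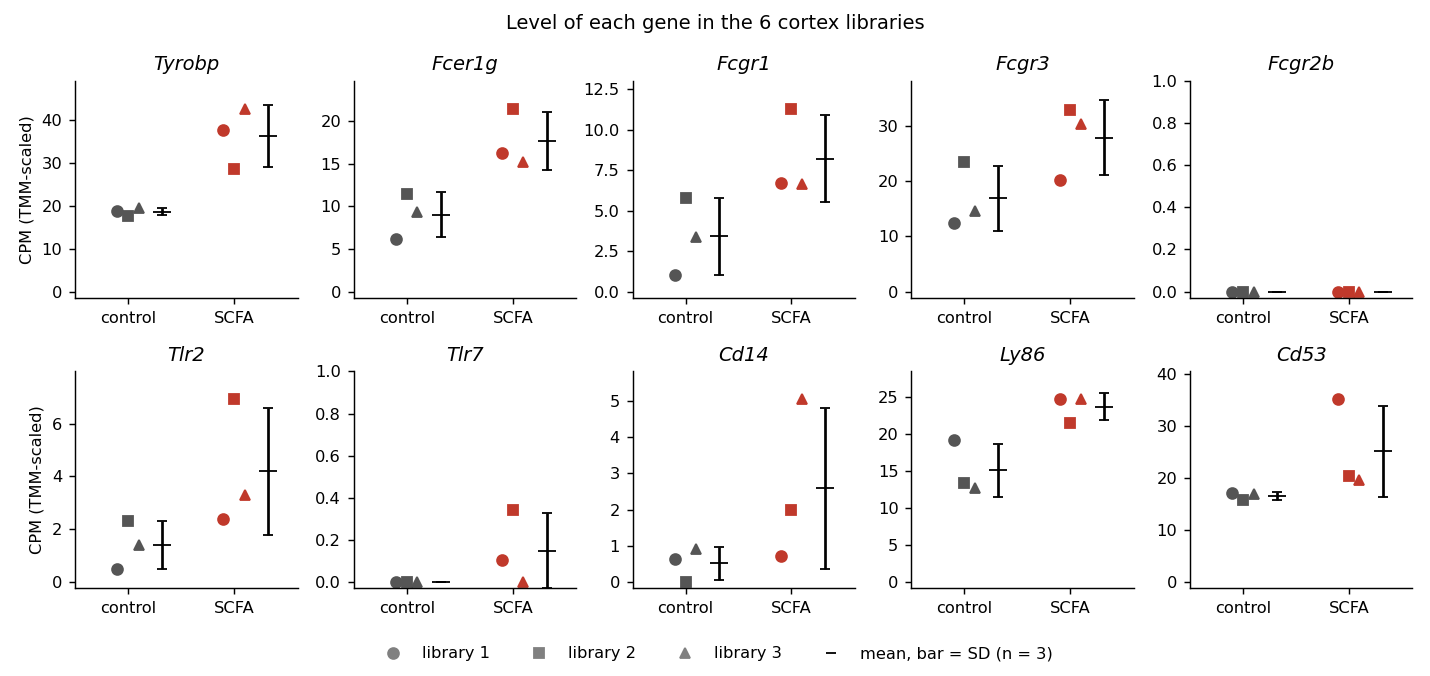
Level of each of the 10 genes in CPM (TMM-scaled, linear axes from 0) in the 3 control libraries (grey) and the 3 SCFA libraries (red), with the symbol giving the replicate number and the black bar the mean and SD. The controls of Tyrobp and Cd53 lie close together, SCFA 2 is the highest library for Fcer1g, Fcgr1, Fcgr3 and Tlr2, and Fcgr2b is at 0 throughout.

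Among the adaptors, Tyrobp had the smallest p of the list. The gene lies on chromosome 7 from 30413782 to 30417582 (GRCm38), and its product, also called DAP12, carries the signal of Trem2 and other microglial receptors. The controls measured 18.8, 17.7 and 19.4 CPM and the SCFA libraries 37.7, 28.5 and 42.7 CPM. The controls lay close together, and the lowest SCFA library, SCFA 2, was well above them. The means were 18.6 ± 0.843 CPM and 36.3 ± 7.2 CPM (SD, n = 3 each). The log2 fold change was 0.96 (SE 0.223), a fold of 1.95, with an adjusted p of 0.406 in edgeR and rank 24 by p among all genes tested. The gene passed with DESeq2 (adjusted p = 0.0491), without a low-count filter (edgeR, adjusted p = 0.0443) and when control 2 and SCFA 2 were both left out, at a log2 fold change of 1.08 (edgeR, adjusted p = 0.0389). Over all alternatives the adjusted p ran from 0.0389 to 1.0, the highest without SCFA 3.

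Fcer1g encodes the common gamma chain, the ITAM subunit that the activating Fc receptors need to reach the cell surface (chromosome 1, 171229572 to 171234349). The controls measured 6.23, 11.5 and 9.31 CPM and the SCFA libraries 16.3, 21.5 and 15.2 CPM. Every SCFA library was above every control, and the highest library of each group was number 2. The log2 fold change was 0.97 (SE 0.313), from 9.02 ± 2.66 to 17.6 ± 3.34 CPM (SD, n = 3 each), and the gene did not pass (edgeR, adjusted p = 0.864). The fold of Fcer1g, 1.96, was thus close to that of Tyrobp, while its controls were spread more widely.

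Among the activating Fc receptors, Fcgr1, the high-affinity receptor for IgG (chromosome 3, 96282909 to 96293969), had the larger difference. It measured 1.05, 5.76 and 3.4 CPM in the controls and 6.69, 11.3 and 6.62 CPM with SCFA. The groups did not overlap, but control 2 came close to SCFA 1 and SCFA 3, and control 1 rested on 13 counts. This gave a log2 fold change of 1.29 (SE 0.563, edgeR adjusted p = 0.864). It moved with single libraries, to 1.9 without control 2 and to 0.85 without control 1.

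Fcgr3, a low-affinity activating receptor for IgG complexes (chromosome 1, 171051169 to 171065915), was the only tested member whose groups overlapped. The controls measured 12.5, 23.5 and 14.6 CPM and the SCFA libraries 20.1, 32.9 and 30.4 CPM. Control 2 lay above SCFA 1, and the other controls lay below all SCFA libraries. Its log2 fold change was 0.73 (SE 0.29, edgeR adjusted p = 0.864), and 0.90 without control 2 and SCFA 2. The annotation places 4 tRNA and microRNA genes within Fcgr3, and the sources used here do not give the strand setting of the counting.

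Fcgr2b, the inhibitory Fc receptor that acts through its own tail, had 0 counts in all 6 libraries, in both of its transcript rows, so the balance of activating and inhibitory Fc receptors could not be measured. A count of 0 allows up to 0.206 to 0.346 CPM in these libraries, for counting error only. It was not read as absence, because genes with several transcript rows were often without counts. Among protein-coding genes the share that could be tested was 61.3% for those with 1 row and 34.3% for the rest. The 8 members with 1 row held 121 to 1930 counts, and the 2 with several rows, Fcgr2b and Tlr7, held 0 and 6.

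Tlr2, the receptor for bacterial lipoproteins (chromosome 3, 83836272 to 83841824), had the highest fold change of the tested members and the fewest counts. It measured 0.486, 2.31 and 1.4 CPM in the controls, from 6, 20 and 14 counts, and 2.4, 6.94 and 3.28 CPM with SCFA, from 23, 101 and 44 counts. The groups did not overlap, and control 2 and SCFA 1 were nearly equal. The log2 fold change was 1.61 (SE 0.751, edgeR adjusted p = 0.864), and it was 1.04 without SCFA 2, the library with the highest count. Tlr2 was the 1 tested member that missed the unadjusted threshold of 0.05. The gene reached the low-count filter in 2 controls and 3 SCFA libraries, so no direction is read from it.

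Tlr7, an endosomal receptor for single-stranded RNA on chromosome X (167303380 to 167330574), had 0 counts in each control and 1, 5 and 0 counts with SCFA. All 6 counts came from 1 of its 5 transcript rows. The control counts of 0 allow up to 0.243 to 0.346 CPM, and no difference was detectable at this depth.

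Cd14, the co-receptor that hands lipopolysaccharide to the Toll-like receptor complex (chromosome 18, 36725064 to 36726815), was too low for the filter. It had 8, 0 and 9 counts in the controls and 7, 29 and 68 counts with SCFA. A count of 0 in control 2 allows up to 0.346 CPM. The counts stand for 0.648, 0 and 0.901 CPM in controls and 0.731, 1.99 and 5.06 CPM with SCFA. SCFA 1 lay between the controls, and the other SCFA libraries lay above them. Without a filter the log2 fold change was 2.29 and did not pass (edgeR, adjusted p = 0.747).

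Ly86 encodes MD-1, the partner protein of the Toll-like receptor homologue Cd180 (chromosome 13, 37345345 to 37419036). The controls measured 19.3, 13.4 and 12.8 CPM and the SCFA libraries 24.8, 21.6 and 24.8 CPM. The SCFA libraries were close together, and control 1 was the control nearest to them. This gave a log2 fold change of 0.64 (SE 0.252, edgeR adjusted p = 0.864). Its partner gene Cd180 had a log2 fold change of 1.09 (SE 0.537), with means of 2.98 ± 1.12 and 6.29 ± 2.87 CPM (SD, n = 3 each) that overlapped between the groups, and did not pass (edgeR, adjusted p = 0.88).

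Cd53, a tetraspanin that organises receptors in the membrane of white blood cells (chromosome 3, 106758861 to 106790149), had the smallest difference. It measured 17.2, 15.7 and 16.9 CPM in the controls and 35.2, 20.4 and 19.7 CPM with SCFA. The controls were as tight as those of Tyrobp, and SCFA 1 stood far above SCFA 2 and SCFA 3. Its log2 fold change was 0.59 (SE 0.271, edgeR adjusted p = 0.864) and 0.28 without SCFA 1.

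**Figure D2:**
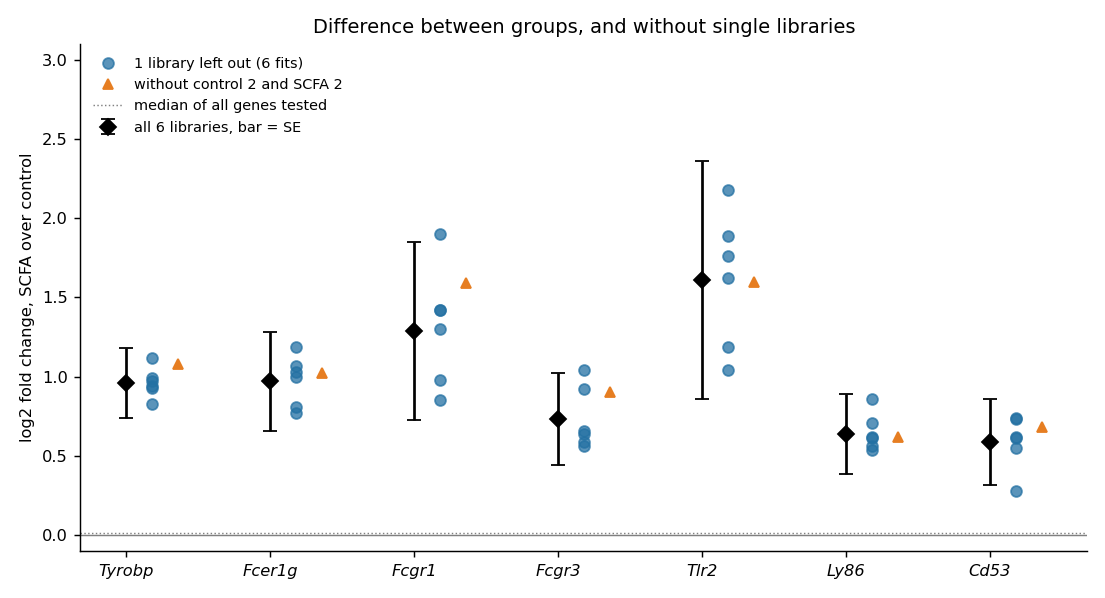
Log2 fold change of SCFA over control (vertical axis) for the 7 tested genes: black diamonds with SE for all 6 libraries, blue points for the 6 fits that leave out 1 library, and orange triangles for the fit without control 2 and SCFA 2. All points lie above 0, the points of Tyrobp lie between 0.83 and 1.12, and those of Tlr2 are spread from 1.04 to 2.18. No direction is read from Tlr2.

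Per length of transcript, Tyrobp was the most abundant member in both groups. In CPM per kilobase it measured 33.1 ± 1.5 in controls and 64.4 ± 12.8 with SCFA (SD, n = 3 each, here and in the rest of the paragraph). Fcer1g at 13.4 ± 3.94, Ly86 at 13.4 ± 3.15, Fcgr3 at 12.5 ± 4.33 and Cd53 at 9.52 ± 0.457 followed in controls, and neighbours in this order differed by less than their spread. With SCFA the order of these genes was the same, at 26.2 ± 4.96, 20.9 ± 1.62, 20.6 ± 5.07 and 14.4 ± 5.03. Fcgr1 was lower than all of them, at 1.32 ± 0.91 and 3.17 ± 1.05. Tlr2 measured 0.464 ± 0.302 and 1.4 ± 0.8 and Cd14 measured 0.315 ± 0.283 and 1.58 ± 1.36, and these genes overlapped in both groups, as Fcgr1 and Tlr2 did in controls. The adaptor chains were thus present at higher levels per length than the ligand-binding receptors Fcgr1 and Tlr2 in every library. This did not hold for the receptor Fcgr3, which was slightly above Fcer1g in control 1 (9.31 and 9.25), control 2 (17.5 and 17.1) and SCFA 3 (22.6 and 22.5).

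The ratio of a member to Tyrobp within a library does not depend on the scaling of libraries. Fcer1g had 33.2, 64.9 and 47.9 counts per 100 counts of Tyrobp in the controls and 43.2, 75.2 and 35.5 with SCFA. Fcgr1 had 5.6, 32.5 and 17.5 in controls and 17.7, 39.8 and 15.5 with SCFA. For these genes the groups overlapped, and control 2 and SCFA 2 were the highest libraries. Over the summed counts of a group, which weigh libraries by depth, Fcer1g stood at 46.6 in controls and 49.8 with SCFA. Between libraries its ratio ran from 33.2 to 64.9 in controls and from 35.5 to 75.2 with SCFA, so a constant proportion is not shown.

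For Fcgr3 the values were 66.8, 132 and 75.3 per 100 counts of Tyrobp in the controls and 53.2, 115 and 71.3 with SCFA. Tlr2 had 2.59, 13 and 7.22 in controls and 6.37, 24.3 and 7.67 with SCFA. In 4 of the 6 other tested members, namely Fcer1g, Fcgr1, Fcgr3 and Tlr2, control 2 and SCFA 2 thus had more counts per count of Tyrobp than each of the other 4 libraries, where 4.55% of all genes tested showed this. The same 4 members had the highest CPM of their group in control 2 and in SCFA 2, which held for 14.0% of all genes. These are the libraries that stood apart, and the part of library differences in the ratios was not tested.

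The ratios of Ly86 and Cd53 behaved otherwise. Ly86 had 103, 75.3 and 66 counts per 100 counts of Tyrobp in controls and 65.7, 75.7 and 58 with SCFA. Cd53 had 91.4, 88.3 and 87.1 in controls and 93.4, 71.3 and 46.2 with SCFA, and SCFA 3 was the lowest library for both genes.

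**Figure D3:**
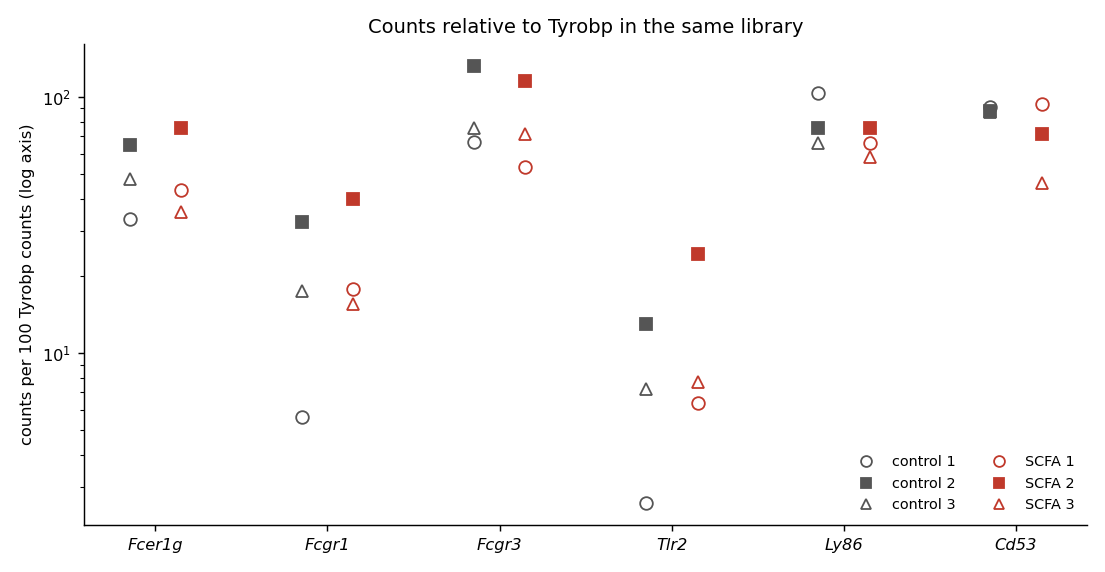
Counts per 100 counts of Tyrobp in the same library (log axis) for 6 genes, with controls in grey, SCFA libraries in red and filled squares for control 2 and SCFA 2. The filled squares lie above the other libraries for Fcer1g, Fcgr1, Fcgr3 and Tlr2, and within them for Ly86 and Cd53.

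The microglia markers were set beside the members. Of 12 markers 11 were tested, and 0 passed in edgeR (5 at an unadjusted p under 0.05, all higher, where 2.97% of all genes were). All 11 had a log2 fold change above 0, with a median of 0.55, where 50.9% of all genes had one. In 3 of the 11 each SCFA library lay above each control, where 6.42% of all genes showed this, and in 8 the groups overlapped, among them P2ry12 at 0.13 (SE 0.198) and Sall1 at 0.28 (SE 0.232). Their summed level was 285 to 361 CPM in controls and 397 to 611 CPM with SCFA, and Siglech was at 0 in its 3 transcript rows. The mean centred log2 CPM of the 7 tested members was -0.88, -0.14 and -0.45 in the controls and 0.38, 0.66 and 0.42 with SCFA. It includes Tlr2, from which no direction is read. The mean centred log2 CPM of the 11 microglia markers was -0.27, -0.20 and -0.37 in controls and 0.14, 0.58 and 0.12 with SCFA. The difference of these scores was -0.61, 0.06 and -0.08 in controls and 0.25, 0.08 and 0.30 with SCFA. Control 1 was the lowest, SCFA 2 lay almost level with control 2, and the group means of -0.21 and 0.21 differed by 0.42 with a pooled SD within groups of 0.26. In control 1, 4 members had their lowest level of all libraries, among them Fcgr1 at 13 counts and Tlr2 at 6. Ly86 and Cd53 had their highest control level there. The part of these low counts in the difference was not tested.

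**Figure D4:**
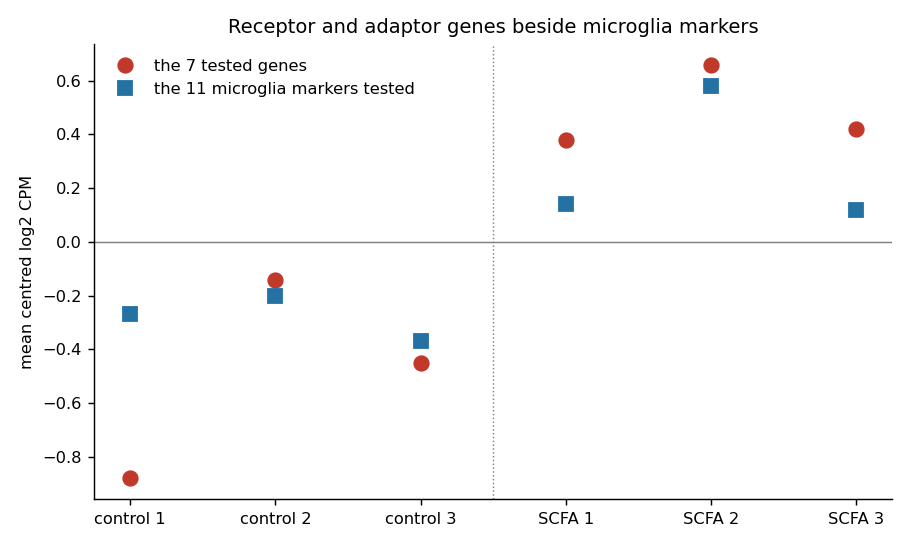
Mean centred log2 CPM (vertical axis) of the 7 tested genes (red) and of the 11 tested microglia markers (blue) in each of the 6 libraries. Both lie below 0 in the 3 controls and above 0 in the 3 SCFA libraries, and the genes lie furthest below the markers in control 1. The 7 genes include Tlr2, from which no direction is read.

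The summed levels of markers of other cells that express these receptors overlapped between the groups. Border macrophage markers summed to 21.1 to 31.9 CPM in controls and 26.4 to 30.6 CPM with SCFA, led by Mrc1, with Cd163 and Ms4a7 at 0. Monocyte markers summed to 7.71 to 10 CPM and 5.58 to 10.2 CPM, with Chil3 at 0. Of the 4 tested, 1 had each SCFA library above each control, where 6.42% of all genes showed this. That gene, Ly6c2, measured 2.43, 0 and 1.5 CPM in controls and 3.13, 2.48 and 2.46 CPM with SCFA. It reached the low-count filter in 2 controls and 3 SCFA libraries, so its direction is not read. Neutrophil markers stayed at 0.405 to 2.1 CPM and 0.595 to 2.09 CPM, with S100a9 and Ly6g at 0. Lymphocyte and NK cell markers summed to 0.801 to 10.5 CPM and 1.86 to 13 CPM, led by Cd4, with Cd79b and Klrb1c at 0. Mast cell and basophil markers, whose IgE receptor uses the Fcer1g chain, summed to 0.115 to 4 CPM and 0.418 to 1.65 CPM, with Ms4a2 at 0. No neutrophil, mast cell or basophil marker had enough counts for the test and 1 lymphocyte marker had. Of these and the 8 tested border macrophage and monocyte markers, 0 passed. The list ranges overlapped between the groups in each of these 5 types.

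Among the other tissue markers, astrocyte markers summed to 565 to 681 CPM in controls and 768 to 1170 CPM with SCFA, and endothelial markers to 56.1 to 76.7 CPM and 86.7 to 125 CPM, without overlap and highest in SCFA 2. Oligodendrocyte markers overlapped at 123 to 174 CPM and 132 to 198 CPM. Exocrine pancreas markers, which do not belong to cortex, summed to 26.7 to 318 CPM in controls and 0.744 to 1.57 CPM with SCFA. Of the 8 tested, 6 passed as lower in edgeR, among 9 such genes in the whole table. Apart from pancreas genes, 0 of 49 tested markers passed with edgeR or limma-voom and 1 passed with DESeq2, the astrocyte gene Slc1a3. The part of these cell types in the differences of the members was not tested.

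Over the pathway lists that follow, 0 of the 68 tested genes that are no members passed with edgeR, DESeq2 or limma-voom. Receptors that pair with the adaptors had few counts. Of 21 genes, a list that also holds relatives such as Clec7a with a signalling tail of their own, 1 could be tested, the TREM family gene Treml2, at a log2 fold change of 0.47 (SE 1.01). Trem2, the best known partner of Tyrobp in microglia, had 0, 0 and 1 counts in controls and 2, 0 and 8 with SCFA over 2 transcript rows, and Clec7a had 0. Over all pathway lists, 67.0% of the genes with 1 row could be tested and 17.9% of those with 2 or more, so that these low values were not read as absence. For the receptor side of the Tyrobp complex, no comparison could be made.

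Downstream of the ITAM, the genes lay on both sides of 0. Of 25 genes 11 were tested, and 5 had a log2 fold change above 0, where 50.9% of all genes had one. In edgeR 0 passed, and 2 were higher at an unadjusted p under 0.05, where 2.97% of all genes were. The median was -0.08 and the mean 0.37, so that these differ in sign. The mean centred log2 CPM of the list was -0.29, -0.29 and -0.16 in controls and 0.24, 0.23 and 0.27 with SCFA, without overlap. Both this score and the mean include Fyn and Card9. These 2 genes reached the low-count filter in some controls but each SCFA library, so no direction is read from the list. The 2 with an unadjusted p under 0.05 are genes of scaffold proteins. Blnk, which links Syk to phospholipase C, measured 5.83, 2.65 and 2.1 CPM in controls and 8.67, 9.97 and 9.08 CPM with SCFA (log2 fold change 1.38, SE 0.46, edgeR adjusted p = 0.864). Lcp2, the adaptor SLP-76, measured 3.08, 6.22 and 2.2 CPM and 8.57, 12.9 and 6.55 CPM (1.29, SE 0.48). Both had each SCFA library above each control, as had 3 of the 11 tested genes of the list in all, where 6.42% of all genes showed this. Card9, which links ITAM receptors to NF-kB, had a log2 fold change of 1.45 (SE 0.676) with overlapping groups. It reached the low-count filter in 2 controls and 3 SCFA libraries. Syk itself had 13 counts in all over 2 rows.

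Genes on the inhibitory side were few. Of 22 genes for receptors with inhibitory motifs and their phosphatases 6 were tested and 0 passed in edgeR. At an unadjusted p under 0.05, 2 were higher, Clec12a and Cd300a, where 2.97% of all genes were. Clec12a and Cd200r1 reached the low-count filter in 0 controls and Cd300a in 1, and all 3 in each SCFA library. A gene that enters the test through the SCFA libraries alone had to lie above 0, so no direction is read from the list. Clec12a, an inhibitory lectin receptor of myeloid cells, had 1, 0 and 4 counts in controls and 22, 62 and 27 with SCFA (edgeR, adjusted p = 0.83). Cd300a, an inhibitory receptor of myeloid and lymphoid cells, had 13, 0 and 0 counts and 32, 69 and 37 (adjusted p = 0.864). Cd200r1, the receptor for the neuronal protein CD200, had 6, 0 and 1 counts and 16, 13 and 17 (adjusted p = 0.876).

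In the Fc receptor family, 6 of 15 genes were tested, of which 3 are members. All 6 lay above 0, where 50.9% of all genes did, with a median log2 fold change of 0.85. Fcgr4 among them reached the low-count filter in some controls but each SCFA library, so no direction is read from the list. Over the 3 that are no members the median was 0.40, and 0 passed in edgeR or had an unadjusted p under 0.05. Fcgr4, the further activating receptor that uses Fcer1g, measured 0.567, 2.65 and 1.2 CPM in controls and 2.3, 5.36 and 3.13 CPM with SCFA, with control 2 above SCFA 1 (1.30, SE 0.761). It reached the low-count filter in 2 controls and 3 SCFA libraries. Fcrls, a microglial Fc receptor-like gene, had a log2 fold change of 0.40 (SE 0.283). Fcgrt, the neonatal Fc receptor that recycles IgG in endothelium, had 0.18 (SE 0.273).

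In the Toll-like receptor family, 6 of 12 genes were tested and 0 passed in edgeR. At an unadjusted p under 0.05, 1 was higher, Tlr6, where 2.97% of all genes were. Tlr6 reached the low-count filter in 0 controls, and Tlr2, Tlr9 and Tlr13 in some controls but each SCFA library, so no direction is read from the list. The genes that reached it in every library were Tlr4 and Tlr3, the latter, a receptor for double-stranded RNA, at a log2 fold change of 0.02 (SE 0.392). Tlr6, which pairs with Tlr2 for diacylated lipoproteins, had 0, 0 and 2 counts in controls and 10, 13 and 14 with SCFA (edgeR, adjusted p = 0.864). Tlr4, the lipopolysaccharide receptor, measured 9.63, 3.57 and 10.8 CPM in controls and 14.6, 9.83 and 13.5 CPM with SCFA, and control 3 lay above SCFA 2 (0.65, SE 0.403). Tlr9, the receptor for unmethylated DNA, had 1.13 (SE 0.917).

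Of 14 genes for Toll-like receptor helpers and trafficking 9 were tested, and 7 lay above 0, where 50.9% of all genes did, with a median of 0.52. In edgeR 0 passed, and 1, Ly86, was higher at an unadjusted p under 0.05, where 2.97% of all genes were. After Cd180, the smallest p were those of Nrros, at 0.82 (SE 0.584), and of the endosomal transporter gene Slc15a3, at 0.80 (SE 0.626). Of 23 genes for adaptors and kinases 12 were tested, 6 lay above 0 with a median of 0.05 and a mean of -0.09, and 0 had an unadjusted p under 0.05. Myd88, the adaptor of most Toll-like receptors, measured 3.8, 4.15 and 4 CPM in controls and 7.1, 5.43 and 6.77 CPM with SCFA, without overlap (0.69, SE 0.429). Irak4, the kinase that Myd88 recruits, lay the other way without overlap, at 2.83, 5.65 and 3.4 CPM and 1.88, 1.17 and 1.94 CPM (-1.25, SE 0.653, edgeR adjusted p = 0.881). Over all genes, 6.42% had each SCFA library above each control, as Myd88 had, and 5.74% had each below, as Irak4 had. Irak3, an inhibitor of the Irak4 step, had -1.02 (SE 0.738).

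Subunits and early targets of NF-kB, the factor these receptors activate, had a median of 0.29 over 8 tested genes of 18, and 0 had an unadjusted p under 0.05. Nfkb1 had -0.45 (SE 0.227), Rela 0.32 (SE 0.322) and the cytokine gene Il1a 2.06 (SE 1.18), the last from 9, 0 and 2 counts in controls and 15, 14 and 22 with SCFA, having reached the low-count filter in 0 controls. Of 15 tetraspanin genes 10 were tested, Cd53 among them, with a median of 0.14, and over the 9 others it was 0.11. Tspan13 had 0.35 (SE 0.16), Tspan7 0.27 (SE 0.15) and Cd9 0.54 (SE 0.324), and 0 tetraspanin genes passed in edgeR. At an unadjusted p under 0.05, 2 were higher, Cd53 and Tspan13, where 2.97% of all genes were.

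Among 10 myeloid transcription factor genes 5 were tested, with a median of 0.74, and 0 passed in edgeR. At an unadjusted p under 0.05, 2 were higher, where 2.97% of all genes were. Spi1 reached the low-count filter in 2 controls and Mef2a in 1, and both in each SCFA library, so no direction is read from the list. Spi1, the gene of PU.1 whose site core is printed for Fcgr1, Fcgr3 and Cd53, measured 1.05, 0.692 and 2.1 CPM in controls and 4.7, 6.88 and 4.02 CPM with SCFA. Each SCFA library lay above each control, where 6.42% of all genes showed this. The controls held 13, 6 and 21 counts of Spi1 and the SCFA libraries 45, 100 and 54. The log2 fold change was 2.01 (SE 0.644, edgeR adjusted p = 0.864). Mef2c had -0.32 (SE 0.236).

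The genes whose pattern over the 6 libraries was most like that of Tyrobp were found by the root mean square difference of centred log2 CPM. The closest were Mmachc at 0.119, Helb at 0.141, Myd88 at 0.175, Nat8f1 at 0.181, Rpl27 at 0.184 and Hhex at 0.187. They were chosen for a pattern in which the SCFA libraries lie above the controls, so that separation is no result, and 0 of the 6 passed in edgeR (2 at an unadjusted p under 0.05, Mmachc and Rpl27). Among the members, Ly86 was the closest at 0.257, rank 34 of 11968 other genes, followed by Cd53 at rank 280, Fcer1g at rank 982 and Fcgr3 at rank 1533. Fcgr1 and Tlr2 were at ranks 9214 and 9455, with differences of 0.846 and 0.877.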

How the data were processed

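The deposited table holds raw counts of reads per RefSeq transcript, with 34755 rows and a column for each of 6 libraries. The submitters' processing notes name CASAVA 1.8.2, featureCounts and the build mm10. The sources used here do not give the aligner, the strandedness or how reads shared by transcripts were treated. Total RNA went through RNeasy columns and a library kit sold for human FFPE RNA, per the labels' protocols. Of the rows, 34424 (99.05%) were matched to a symbol through a RefSeq table of GRCm38.p6 and summed per symbol. The test was that of edgeR 4.0.16 (R 4.3.3): filterByExpr (minimum count 10, minimum total 15), TMM, the quasi-likelihood F test without covariate, two-sided, and Benjamini-Hochberg adjustment over 11969 genes at a threshold of 0.05. The SE is the size of the log2 fold change divided by the square root of F. The test was run on simulated counts with planted changes larger than those of the tested members, in genes with many counts. Changes of the size of the members, and the SE, were not checked in this way. Centred log2 CPM used a prior count of 2. CPM per kilobase used the GENCODE M21 transcript matched to the RefSeq row with most counts. A count of 0 was given the limit of 3 counts per library.

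The 10 members, 12 marker lists, 10 pathway lists and alternatives were chosen with earlier results of these data known. Named by rule were all members, per pathway list the 3 other tested genes with the smallest p, and the 6 genes most like Tyrobp (predicted genes passed over). The rule also named the leading marker of a type and those at 0. Other genes were named after their values were seen. They are Trem2, Clec7a, Syk, Fyn, Tlr3, Tlr5, Tlr11, Tlr13, Mef2a and Penk. So were P2ry12, Sall1, Ly6c2, Clec5a, Pilra, Ccl2 and Ccl3. Deviations from the group means correlated at -0.00206, 0.0101 and -0.00525 between libraries of the same number, so the replicate number was no block. Alternatives used DESeq2 1.42.0 and limma 3.58.1. A planned search for protein motifs was not run. A few genes that this rule names are not reported here.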

Additional observations from a re-analysis of the deposited data

How the results depend on the processing

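The 7 tested members kept a log2 fold change above 0 in all 17 alternatives. Among the 7 is Tlr2, from which no direction is read. Of 119 values 116 kept their side of the threshold, the exceptions being Tyrobp in 3. Members called higher numbered 0, and 1 (Tyrobp) without a filter, with DESeq2, and without control 2 and SCFA 2. Leaving out 1 library gave 0 members higher and 0 lower, with 2 to 6 at an unadjusted p under 0.05 (edgeR), and medians of 0.81 to 1.11. Cd14 entered the test in 4 of these 6 fits. Total counts gave a median of 1.11 and moved that of all genes to 0.18. Over all genes 1 was higher and 9 lower, against 30 and 25 without a filter, 14 and 17 with DESeq2, 0 and 0 with limma-voom (421 higher at an unadjusted p under 0.05), 14 and 11 without control 2 and SCFA 2, and 0 to 8 and 0 to 13 with 1 library left out (edgeR, 164 to 477 higher at an unadjusted p under 0.05). With the replicate number as a block 10 were higher and 12 lower, and no member's call changed. Among other named genes 4 values changed sign: Treml2 (-0.56 without SCFA 2, -0.56 to 0.85 over the fits with 1 library left out, -0.24 without control 2 and SCFA 2), Rela (-0.02 without SCFA 3, -0.02 to 0.52 over those fits) and Mef2c (0.05 without control 2 and SCFA 2). The causes were not tested. Cd14, Tlr7, Fcgr2b and most pairing receptors had too few counts for the test, and the parts of depth and of several transcript rows per gene in this were not tested.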

Other observations

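Tlr5, the flagellin receptor gene, had 0 counts in each control and 15, 11 and 4 counts in SCFA 1 to 3, too few for the test. Tlr11 had 0 counts in controls and 0, 5 and 5 with SCFA. Clec5a, a receptor that pairs with Tyrobp, had 10 counts in SCFA 3 and 0 in the other 5 libraries. The chemokine gene Ccl3 had 0, 0 and 5 counts in controls and 0, 29 and 14 with SCFA, and Ccl2 had 7, 0 and 4 counts and 0, 30 and 14. In both chemokine genes SCFA 1 stood at 0 beside the other SCFA libraries. These genes were chosen after their values were seen, for counts that lay mainly in SCFA libraries. Other untested genes of the lists went the other way, such as Pilra, with 5, 24 and 2 counts in controls and 0, 4 and 0 with SCFA.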
